A study of Mus musculus with 21 samples.

Results

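The S100 genes encode small calcium-binding proteins of the EF-hand superfamily, and most mouse members sit side by side on chromosome 3. The 10 genes described here are those of the proximal group on that chromosome: S100a1, S100a13, S100a14, S100a16, S100a3, S100a4, S100a6, S100a7a, S100a8 and S100a9. They were taken by symbol after the Ensembl gene identifiers had been matched to GENCODE M21 and are 10 of the 49315 genes in the count tables. In GRCm38 coordinates they span 184688 bp, from S100a1 to S100a9 at chr3:90511034-90695721.

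The study measured total RNA by RNA-seq in sheets of mouse epidermis, the outer layer of skin, to examine the transcription factors AP-2α (Tfap2a) and AP-2β (Tfap2b). The comparison below sets 3 libraries from 6-month-old mice of the genotype K14CreTfap2afl/flTfap2bfl/fl, called the double knockout after its label, against 3 libraries of the strain-specific control, genotype WT, of the same age. K14Cre is a recombinase driven by the keratin 14 promoter, which is active in basal keratinocytes, so cells without that keratin in their history keep their floxed alleles, and the control is not labelled as carrying Cre. A further 2 libraries of K14CreTfap2bfl/fl mice at 3 weeks (called the Tfap2b knockout after their label) held counts but had no control of their age with counts, so their levels are given without a comparison. The labels do not say that the libraries came from separate animals, so the p-values measure only the spread between these libraries, which may be technical.

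Most S100 proteins work as dimers, and many change shape on binding calcium and then hold a target protein. S100a8 and S100a9 form the heterodimer calprotectin, which neutrophils carry in bulk and which keratinocytes make in wounded or inflamed skin. Outside the cell it binds the receptors RAGE (Ager) and TLR4 and withholds zinc and manganese from microbes. S100a14 and S100a16 are epithelial members, S100a3 is a protein of the hair cuticle, and S100a7a is the mouse relative of human psoriasin.

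Promoter sequences are shown for the pair that varied most between libraries, S100a8 and S100a9, and for S100a16, one of the 2 members that passed the test. They are the bases upstream of the start sites in RefSeq (GRCm38.p6), read 5′ to 3′ on the strand of the gene. Of the 10 members, 9 matched an entry, with 13 windows of 250 bases. Capitals mark a match to 1 of 3 motifs searched on both strands, which share no bases in the windows printed: AP-2 (GCCNNNGGC), AP-1 (TGANTCA) and C/EBP (TTGCNNAA).
S100a9, chr3:90695722-90695971, minus strand: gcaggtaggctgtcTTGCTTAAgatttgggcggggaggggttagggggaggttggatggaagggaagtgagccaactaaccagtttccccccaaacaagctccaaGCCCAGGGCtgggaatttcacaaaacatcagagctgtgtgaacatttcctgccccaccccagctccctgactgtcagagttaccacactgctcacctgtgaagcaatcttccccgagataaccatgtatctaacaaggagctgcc
S100a8, chr3:90668821-90668977, plus strand: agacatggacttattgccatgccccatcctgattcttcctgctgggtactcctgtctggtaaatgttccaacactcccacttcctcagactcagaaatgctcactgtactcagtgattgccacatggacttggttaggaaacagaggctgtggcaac
S100a16 window 1, chr3:90537004-90537253, plus strand: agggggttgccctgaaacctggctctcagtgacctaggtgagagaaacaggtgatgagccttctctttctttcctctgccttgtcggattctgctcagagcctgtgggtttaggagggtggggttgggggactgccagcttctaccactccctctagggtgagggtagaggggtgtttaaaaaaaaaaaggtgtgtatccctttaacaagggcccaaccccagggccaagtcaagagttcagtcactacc
S100a16 window 2, chr3:90540896-90541145, plus strand: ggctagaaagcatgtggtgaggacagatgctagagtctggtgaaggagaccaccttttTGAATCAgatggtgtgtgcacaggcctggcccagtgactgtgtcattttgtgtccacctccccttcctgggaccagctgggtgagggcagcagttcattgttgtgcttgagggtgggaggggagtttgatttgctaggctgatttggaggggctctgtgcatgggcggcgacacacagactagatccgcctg

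In the S100a9 window the C/EBP match, TTGCTTAA, began 236 bases before the start and the AP-2 match, GCCCAGGGC, 145 bases before it. The S100a8 window held an AP-2 match, GCCCGAGGC, 65 bases before the start. It lies in the last 93 bases of that window, which GENCODE M21 gives as the first exon of S100a8 and which are not printed, so 157 bases are shown. The second S100a16 window held an AP-1 match, TGAATCA, 192 bases before the start, and the first held none of the 3. Across the 13 member windows, 3 had an AP-2 match (the third in an S100a3 window), 1 an AP-1 match and 1 a C/EBP match. Among 32841 windows of the same length upstream of all annotated starts, 13.7% held the AP-2 letters, 6.75% the AP-1 letters and 9.57% the C/EBP letters. A match describes the letters and is not a measured binding site.

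The 8 libraries with counts held 11318181 to 17746284 counts, and the files of the other 13 of 21 samples were 0 for every gene. Control replicates 1 and 2 stood apart, with 35794 and 39362 genes counted against 23454 to 25537 in the other 6 libraries. Their counts over 1418 odorant and vomeronasal receptor genes were 1.61 and 3.19 per exonic kb against 0.097 to 0.195. This density is taken here, as an assumption, to gauge counts that do not come from expressed genes. Keratinocyte genes were high in every 6-month library, with Krt10 between 5235 and 7824 CPM (the count of a gene per 1000000 counts of its library). The targeted genes did not show the labelled genotype: Tfap2a read 164.6, 140.3 and 210.1 CPM in the controls, against 228.6, 213.2 and 309.2 in the libraries labelled double knockout, and Tfap2b 57.3, 86.6 and 71.0 against 53.8, 57.2 and 56.9. Neither passed the test (log2 fold change 0.47, edgeR adjusted p = 0.118, and -0.43, edgeR adjusted p = 0.111). In the 2 libraries labelled Tfap2b knockout, Tfap2b read 44.9 and 71.7 CPM. No control of their age held counts, so their label cannot be judged from this level. The counts cover whole genes, so loss of single exons was not checked.

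All 10 members were abundant enough to be tested, and 2 were higher in the libraries labelled double knockout, S100a14 and S100a16. S100a8 and S100a9 reached that level through the double knockout libraries, with 1 to 25 and 5 to 8 counts in the controls. Both enter the median and the counts of members below. None was lower, and 8 did not pass. Across the 17755 genes tested with edgeR's quasi-likelihood test at a Benjamini-Hochberg adjusted p under 0.05, 14.9% were called, 6.26% higher and 8.59% lower. The count of 2 in 10 is close to the share called in either direction, and nothing particular to the cluster is read from it. The fitted change was above 0 for 7 members and below 0 for 3, with a median log2 fold change of 0.70 beside -0.04 over all tested genes. The 3 control and the 3 double knockout libraries did not overlap in 4 members that were higher (S100a14, S100a16, S100a8 and S100a9) and in 1 that was lower (S100a7a), against 22.5% and 16.3% of all tested genes and 38.7% in either direction. With control replicate 3 as the only control, the fitted log2 fold changes of S100a14 and S100a16 were 0.81 and 1.12.

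**Figure D1:**
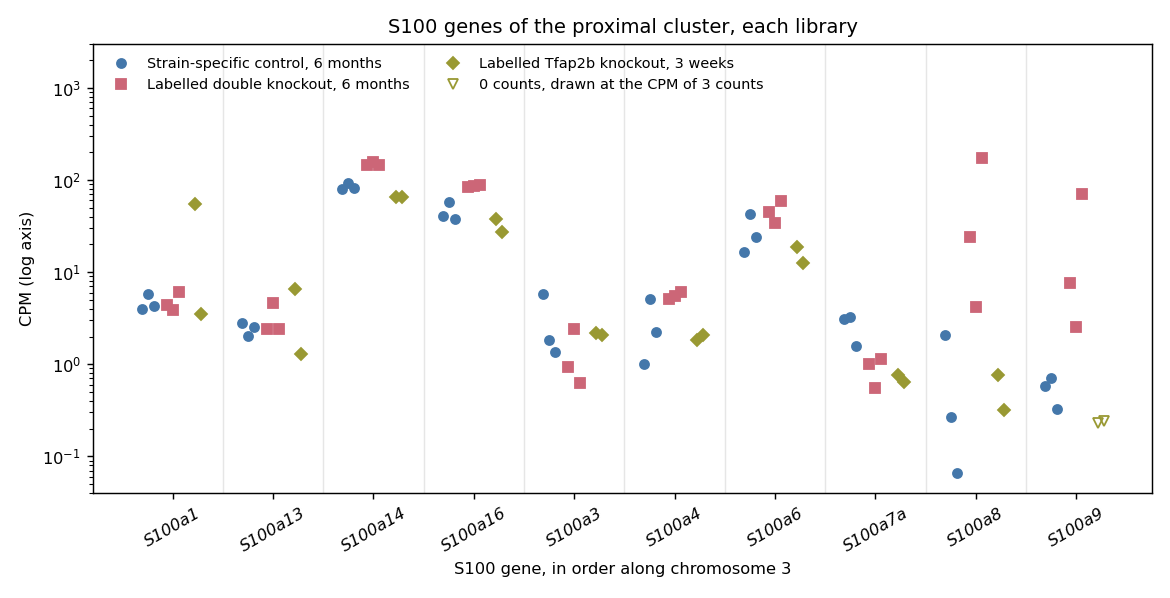
CPM of each S100 gene in each library on a log axis, in the order of the genes on chromosome 3; circles are control and squares double knockout libraries at 6 months, diamonds the Tfap2b knockout at 3 weeks, and open triangles mark 0 counts, drawn at the CPM of 3 counts. S100a14 and S100a16 form tight groups, with the double knockout squares above every control, while the S100a8 squares run from 4.23 to 171.9 CPM.

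S100a14, an epithelial S100 protein that binds RAGE, was the most abundant member per exonic kb in the controls. It read 80.3, 92.1 and 82.3 CPM in control replicates 1, 2 and 3, against 146.1, 158.4 and 144.8 CPM in the double knockout. Every double knockout library was above every control, and the replicates of each group lay close together. The mean was 84.9 ± 6.29 CPM (SD, n = 3) against 149.8 ± 7.48 (SD, n = 3). The fitted change, on TMM-scaled rather than total counts, was 1.67-fold (log2 0.74, SE 0.13, edgeR adjusted p = 0.00679). Since epidermal sheets hold several cell types, more cells of a type and more RNA per cell cannot be told apart here or below. The 2 Tfap2b knockout libraries read 66.2 and 65.9 CPM.

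S100a16, which lies next to S100a14 on the same strand and is found in many epithelia, changed to a like degree. The controls read 40.3, 57.6 and 37.7 CPM and the double knockout libraries 83.6, 85.2 and 87.2 CPM. The groups did not overlap, and the double knockout libraries differed among themselves by less than the controls did. The mean was 45.2 ± 10.8 CPM against 85.3 ± 1.83 CPM (SD, n = 3 each). The fitted change, on TMM-scaled counts, was 1.79-fold (log2 0.84, SE 0.18, edgeR adjusted p = 0.0163). Without double knockout replicate 1 the call was lost (log2 0.91, edgeR adjusted p = 0.0571). In the Tfap2b knockout S100a16 read 37.9 and 27.2 CPM. Over the 8 libraries the log2 levels of S100a14 and S100a16 had a Pearson correlation of 0.96, a description of points that share libraries and groups.

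Together S100a14 and S100a16 made up 70.9% to 77.1% of the members' counts in the controls. In the double knockout their share was 71.8%, 80.7% and 42.2% in replicates 1 to 3. Replicate 3 was the low one, and there 44.2% of the members' counts came from S100a8 and S100a9.

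**Figure D2:**
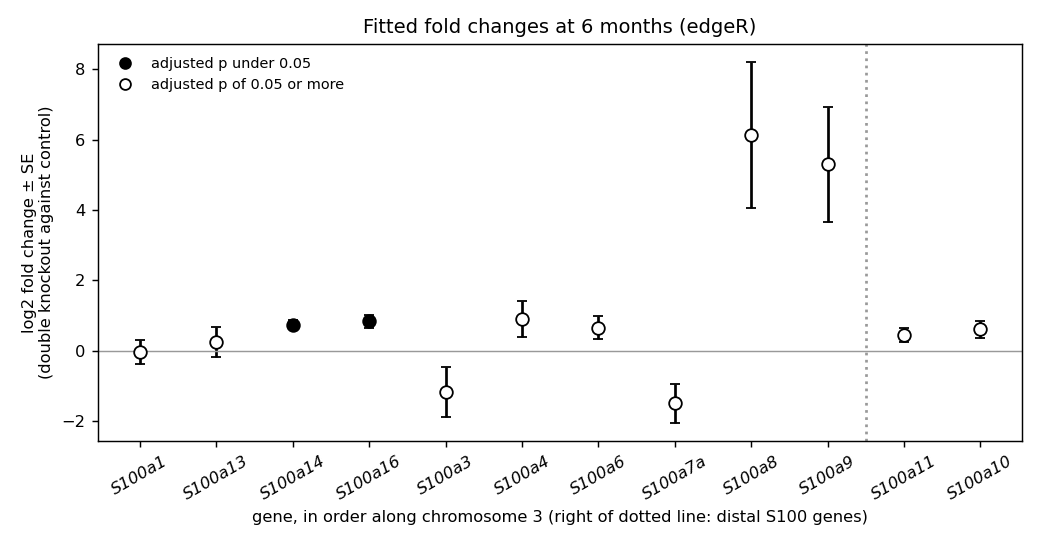
Fitted log2 fold change of double knockout against control at 6 months, with 1 SE either side, for the 10 members and, right of the dotted line, the distal genes S100a11 and S100a10; filled points passed an adjusted p of 0.05. Only S100a14 (0.74) and S100a16 (0.84) are filled, and the bars of S100a8 (6.14) and S100a9 (5.30) are the longest.

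S100a8 and S100a9, the subunits of calprotectin, were low in the controls and present at very unequal levels in the double knockout. S100a8 had 25, 3 and 1 counts in the controls, or 2.08, 0.27 and 0.065 CPM. In the double knockout it had 332, 62 and 3051 counts, or 24.0, 4.23 and 171.9 CPM. All 3 double knockout libraries were above every control, yet replicate 3 exceeded replicate 2 by 40.7 times. The fitted log2 fold change of 6.14 (SE 2.07) did not pass the test (edgeR adjusted p = 0.119). In control replicate 1 the receptor-gene density would by itself give 1.12 counts to S100a8, against 25 counted, and in replicate 2 it would give 2.21, against 3.

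S100a9 had 7, 8 and 5 counts in the controls, 0.58, 0.71 and 0.33 CPM. In the double knockout it had 105, 37 and 1257 counts, 7.60, 2.52 and 70.8 CPM. The order of the double knockout libraries was that of S100a8, and the lowest of them was 3.57 times the highest control, where for S100a8 this ratio was 2.04. The log2 fold change of 5.30 (SE 1.64) did not pass (edgeR adjusted p = 0.0797). For neither subunit did the groups overlap, and in both the double knockout libraries differed among themselves by more than the lowest of them differed from the highest control.

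Leaving out double knockout replicate 3 lowered the S100a9 change to 2.89 and brought it past the threshold (edgeR adjusted p = 0.0233). Leaving out replicate 2 did so at 5.87 (edgeR adjusted p = 0.0396). For S100a8 the value without replicate 3 was 3.89 and did not pass (edgeR adjusted p = 0.106). DESeq2's Wald test called both (S100a8 adjusted p = 0.00221, S100a9 adjusted p = 0.000365), and limma-voom called neither (adjusted p = 0.330 and 0.282).

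The count of S100a8 to that of S100a9 was 3.16, 1.68 and 2.43 in the double knockout. Between these libraries S100a9 differed by up to 28.1 times and S100a8 by up to 40.7 times, while their ratio stayed between 1.68 and 3.16. In the controls the ratio rests on 1 to 25 counts and is not given. The pair held 9.90%, 2.24% and 44.2% of the members' counts in the double knockout and 1.70%, 0.46% and 0.25% in the controls. In the Tfap2b knockout S100a8 had 10 and 4 counts (0.77 and 0.32 CPM) and S100a9 had 0, which allows up to 0.231 and 0.240 CPM when 3 counts are taken as the limit of a count of 0.

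Calprotectin is the chief cytosolic protein of neutrophils, so neutrophil markers are given beside it. Of 18 listed markers 4 were abundant enough to be tested, with a median log2 fold change of 0.03, and 1 was called, Cxcr2, a chemokine receptor. Cxcr2 reached that level through the double knockout libraries, with 6, 3 and 5 counts in the controls. With control replicate 3 as the only control the median was 2.96 over 5 tested. A marker at 0 in that library, as were 13 of the 17 other than Cxcr2, can enter this median only through the double knockout. Cxcr2 read 0.50, 0.27 and 0.33 CPM in the controls, against 45.9, 28.4 and 25.4 CPM in the double knockout (log2 5.98, SE 0.37, edgeR adjusted p = 9.87e-05), so that replicate 3, highest in S100a8, was lowest in Cxcr2. The other 17 markers, set apart after Cxcr2 had been seen to differ, summed to 9.05, 17.1 and 0.59 CPM in the controls, against 6.08, 2.39 and 3.66 CPM in the double knockout. The sum was highest in control replicates 1 and 2, the libraries with the high receptor-gene density, and control replicate 3 was below all 3 double knockout libraries. Ly6g, the marker by which mouse neutrophils are usually defined, had 2, 4 and 0 counts in the controls, against 1, 0 and 0 in the double knockout. Of the 17 markers 7, 8 and 6 were at 0 in double knockout replicates 1, 2 and 3, against 1, 0 and 13 in the controls. The part of neutrophils in the S100a8 and S100a9 levels was not tested.

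**Figure D3:**
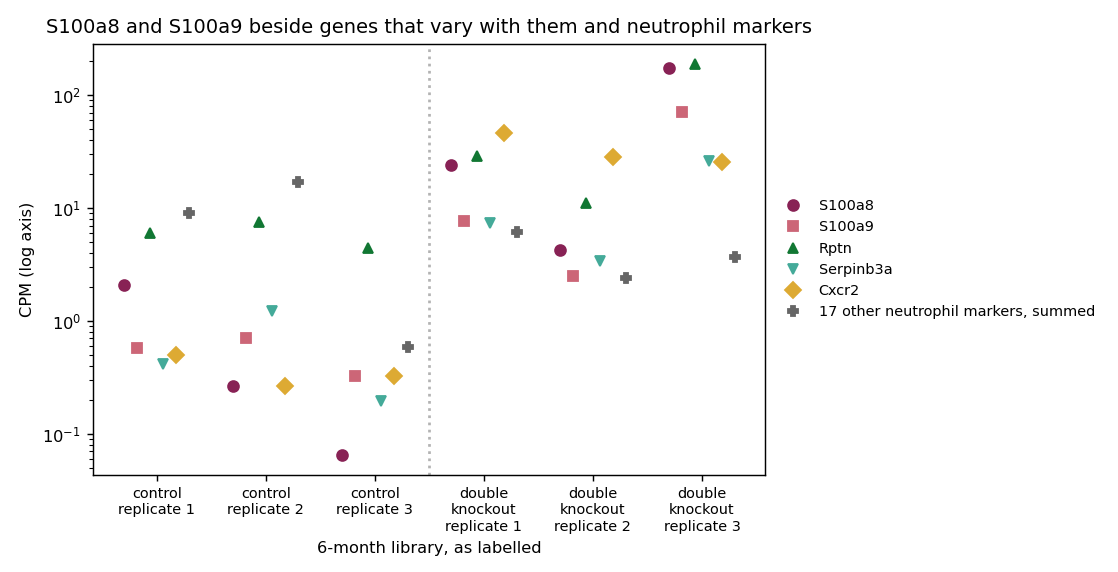
CPM on a log axis of S100a8 and S100a9, of Rptn and Serpinb3a, of Cxcr2 and of the 17 other neutrophil markers summed, in each 6-month library. In double knockout replicate 3 S100a8 (171.9), S100a9 (70.8), Rptn (190.1) and Serpinb3a (25.9) are at their highest. Cxcr2 (25.4) is at its lowest within the group there, and the summed markers stand at 3.66. Rptn and Serpinb3a were picked from the genes most like the pair, so their shared order follows from that choice.

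The genes whose levels were most like those of the pair, by Pearson correlation of log2(CPM + 1) over the 8 libraries among 16984 genes, included epidermal genes. Rptn, which encodes repetin, a protein of the cornified envelope, ranked first for S100a9 (r = 0.981). Rptn read 6.06, 7.51 and 4.43 CPM in the controls, against 29.1, 11.045 and 190.1 CPM in the double knockout, the same order of double knockout libraries as the pair. Psma5, a proteasome subunit, and Bmp7, a growth factor, followed (r = 0.974 and 0.969). For S100a8 the 3 were Gm11201 (r = 0.99), Abhd17c (0.96) and Serpinb3a (0.957), a protease inhibitor of the family of squamous cell carcinoma antigen. Serpinb3a read 0.42, 1.24 and 0.20 CPM in the controls against 7.39, 3.41 and 25.9 CPM. S100a8 and S100a9 correlated at 0.98 with each other. These values describe 8 points in which 1 library holds most of the range. Of the listed granular keratinocyte genes, which include Rptn, Lor, Flg2, Lce1m and Klk5 were highest of the double knockout in replicate 2. The others were highest in replicate 3. The cells from which the RNA of the pair came were not tested.

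S100a7a, the relative of psoriasin, went the other way from the calprotectin pair. It had 37, 37 and 24 counts in the controls (3.07, 3.27 and 1.56 CPM) and 14, 8 and 20 in the double knockout (1.01, 0.55 and 1.13 CPM). Every control was above every double knockout library. The log2 fold change of -1.49 (SE 0.56) did not pass (edgeR adjusted p = 0.0755). It passed with DESeq2 (-1.62, adjusted p = 0.0440) and without control replicate 3 (-1.66, edgeR adjusted p = 0.0260), and without control replicates 1 and 2 it was -0.77 (edgeR adjusted p = 0.553). The Tfap2b knockout libraries read 0.77 and 0.64 CPM. Its 3 most alike genes were Pgr (r = 0.984), Pole3 and Avpi1 (both 0.981). Pgr, the progesterone receptor, read 2.33, 3.45 and 0.98 CPM in the controls, against 0.43, 0.14 and 0.51 CPM in the double knockout. S100a7l2, a second gene of the psoriasin group outside the cluster, had 2, 20 and 21 counts in the controls, against 0 in each double knockout library, too few to be tested.

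S100a6 (calcyclin) and S100a4 (metastasin) lie close together, with S100a5 between them, and are made by stromal and immune cells as well as by keratinocytes. S100a6 read 16.6, 42.5 and 23.8 CPM in the controls, against 44.6, 34.6 and 58.5 CPM in the double knockout. The groups overlapped, since control replicate 2 was above double knockout replicate 2. The fitted change was log2 0.66 (SE 0.33, edgeR adjusted p = 0.208). The Tfap2b knockout read 18.9 and 12.5 CPM.

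S100a4 read 1.00, 5.12 and 2.21 CPM in the controls, against 5.07, 5.45 and 6.09 CPM in the double knockout. Again control replicate 2 was the high one and lay within the double knockout range. The fitted change was log2 0.90 (SE 0.52, edgeR adjusted p = 0.246). Without control replicate 2 the fitted changes were 1.11 for S100a6 (edgeR adjusted p = 0.0527) and 1.63 for S100a4 (edgeR adjusted p = 0.0610). Without control replicate 1 they were 0.40 and 0.52, so the size of both rests on which of the controls is kept. The levels of the pair correlated at 0.90 over the 8 libraries.

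S100a4 is widely used as a fibroblast marker, and control replicate 2 was also highest among the 6-month libraries in the listed dermal fibroblast genes. Their summed level was 152.1 to 324.0 CPM in the controls, against 144.3 to 204.9 CPM in the double knockout. Of the 11 fibroblast genes tested 2 were called higher (Col6a1 and Fbln1) and 4 lower (Col1a1, Col1a2, Col3a1 and Fbn1), with a median of -2.03. Without control replicates 1 and 2 none of the 11 was called and the median was -0.63. Col3a1, a fibrillar collagen chain, read 12.5, 27.6 and 12.96 CPM in the controls, against 2.82, 5.05 and 5.35 CPM in the double knockout. The part of these cells in the S100a4 and S100a6 levels was not tested.

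S100a3, the cuticle protein of the hair, was low throughout. It had 69, 21 and 21 counts in the controls (5.73, 1.86 and 1.37 CPM) and 13, 35 and 11 in the double knockout (0.94, 2.39 and 0.62 CPM). Control replicate 1 was high and the groups overlapped. The fitted log2 change of -1.18 (SE 0.71, edgeR adjusted p = 0.247) became -0.33 without control replicate 1. The gene model of S100a3 covers 5660 exonic bp and overlaps those of S100a2 and Gm42674, and the receptor-gene density of the controls would by itself give it 9.11, 18.1 and 0.84 counts. Most of the 21 counts in control replicate 2 are thus matched by that density. Of 11 hair shaft genes tested 1 was called higher (Foxn1) and 2 lower (Krt32 and Lef1), with a median of -1.06. None of 15 tested was called without control replicates 1 and 2, and the part of hair remnants in S100a3 was not tested. The Tfap2b knockout read 2.16 and 2.08 CPM.

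S100a1, best known from heart and skeletal muscle, and S100a13, which takes part in the export of proteins without a signal peptide, are transcribed away from each other. Their annotated starts lie within 250 bases, so that their promoter windows overlap. S100a1 read 3.99, 5.74 and 4.30 CPM in the controls, against 4.42, 3.89 and 6.14 CPM in the double knockout, with full overlap and no change past the test (log2 -0.03, SE 0.34, edgeR adjusted p = 0.965). The sign of this value turned with the scaling, to 0.05 on total counts. S100a13 read 2.82, 2.03 and 2.54 CPM against 2.39, 4.57 and 2.42 CPM, again overlapping (log2 0.25, SE 0.43, edgeR adjusted p = 0.705).

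Both genes stood out in 1 library of the Tfap2b knockout. S100a1 read 54.8 CPM in replicate 1 and 3.52 in replicate 2, and S100a13 6.63 and 1.28 CPM. Replicate 1 also carried far more RNA of tissues under the epidermis than replicate 2. The listed adipocyte genes summed to 2353 CPM against 1.92, dermal fibroblast genes to 3459 against 161.0 and endothelial genes to 500.7 against 6.23. The sebaceous list summed to 14646 against 1260 CPM, but in replicate 1 Scd1 and Fasn alone held 8197 and 5818 CPM of it. Skeletal muscle genes were low in both libraries, at 26.1 and 6.07 CPM. The part of those cells in the S100a1 and S100a13 levels was not tested. Tns2 (r = 0.996), Idh3a (0.996) and Heg1 (0.993) were the genes most like S100a1, all high in that library, as in Heg1, a receptor of endothelial cells, with 144.2 CPM against 6.63.

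Per exonic kb, a scale on which genes can be compared, S100a14 led in the controls with 49.2 ± 3.64 CPM per kb (SD, n = 3), above the range of every other member. S100a16 (27.9 ± 6.70) and S100a6 (20.2 ± 9.77) followed with overlapping ranges, and S100a1 (6.74 ± 1.35), S100a4 (4.76 ± 3.63) and S100a13 (3.45 ± 0.56) came next, each overlapping its neighbour. S100a7a, S100a8, S100a9 and S100a3 closed the order between 1.91 and 0.53 with overlapping neighbours. In the double knockout the highest mean belonged to S100a8, 96.2 ± 132.0 CPM per kb. Its range of 6.09 to 247.7 overlapped that of every other member except S100a7a and S100a3. S100a14 (86.7 ± 4.33) and S100a16 (52.8 ± 1.13) kept their order without overlap, and S100a9 was at 51.7 ± 72.9. S100a7a and S100a3 were last, at 0.65 and 0.23.

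**Figure D4:**
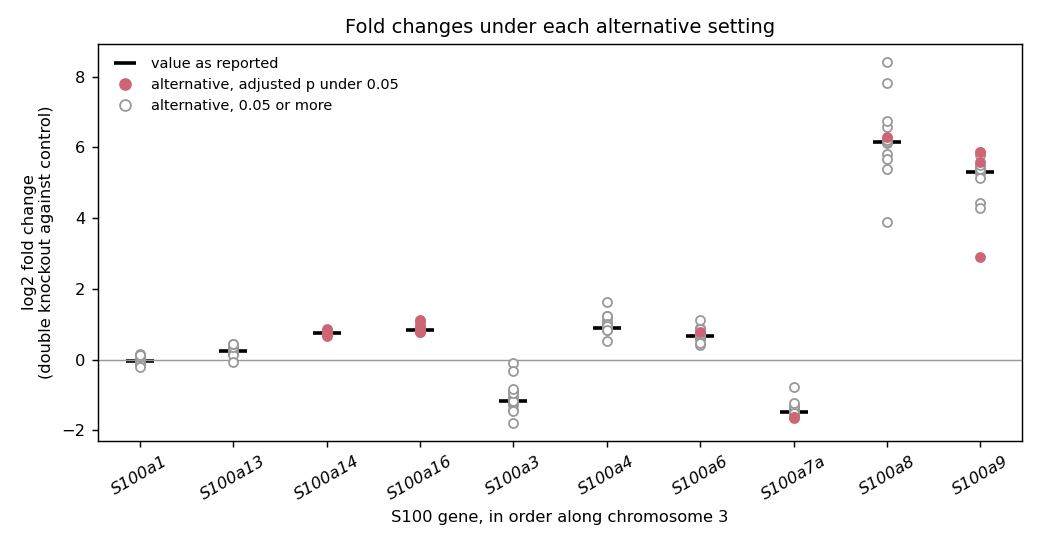
Log2 fold change of each member as reported (black bars) and under each of the 17 alternative settings (circles, filled red where the adjusted p was under 0.05), in the order of the genes on chromosome 3. S100a14 stays between 0.67 and 0.86 and is filled throughout, S100a16 between 0.77 and 1.12, and the S100a8 circles run from 3.89 to 8.41.

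The 6 annotated genes that lie between the first and last member without being members (S100a2, S100a5, Gm24593, Gm23464, Gm42674 and Gm19739) were too low to be tested, with at most 10 counts in any library. The nearest tested genes on either side, chosen after their values were seen, were Chtop, an mRNA export factor (log2 0.22, edgeR adjusted p = 0.298), and Pglyrp4, a peptidoglycan-binding protein of skin (log2 -0.21, edgeR adjusted p = 0.668). Neither passed the test.

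Farther along chromosome 3, beginning 2825 kb beyond S100a9, lie S100a11 and S100a10, which keratinocytes also express. S100a11 read 211.8, 189.9 and 127.7 CPM in the controls, against 274.3, 234.2 and 253.6 CPM in the double knockout, and S100a10 99.3, 95.5 and 54.0 against 164.8, 117.7 and 119.5 CPM. In both genes every double knockout library was above every control, with control replicate 3 lowest. The log2 fold changes, 0.45 (SE 0.19, edgeR adjusted p = 0.133) and 0.61 (SE 0.24, edgeR adjusted p = 0.116), did not pass. With control replicate 3 as the only control they were 0.93 and 1.25. S100pbp, which encodes an S100P-binding protein, had a log2 fold change of -0.51 (edgeR adjusted p = 0.0728). S100b, S100g and S100z were below the level needed for a test.

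Among 12 genes for receptors of S100 proteins, all tested, 1 was called higher and none lower, with a median log2 fold change of -0.11. Ly96, which encodes the TLR4 co-receptor MD-2, read 1.99, 1.86 and 1.95 CPM in the controls, against 5.65, 6.00 and 4.06 CPM in the double knockout (log2 1.30, edgeR adjusted p = 0.0345). That call was lost under 9 of 17 alternatives. Tlr4 (0.36, edgeR adjusted p = 0.629) and Ager (-0.09, edgeR adjusted p = 0.913) did not pass.

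Of 20 genes for proteins that S100 dimers bind, 18 were tested, 1 was called higher and 2 lower, with a median of -0.17. Tagln2, an actin-binding protein, rose from 45.0, 65.4 and 44.5 CPM to 126.6, 116.0 and 116.9 CPM (log2 1.14, edgeR adjusted p = 0.00412). Ncf1, a subunit of the phagocyte NADPH oxidase, fell by 1.00 on the log2 scale (edgeR adjusted p = 0.0495), a call lost under 12 of the 17 alternatives. Annexins, the partners of S100a10, S100a11 and S100a6, did not pass, as in Anxa2 (0.17, edgeR adjusted p = 0.371).

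Cytokines of the IL-17, IL-22, IL-1, IL-36 and oncostatin M families, their receptors and the factors below them are known inducers of S100a8 and S100a9 in keratinocytes. Of 26 listed genes 17 were tested, with 3 called higher, 1 lower and a median of -0.18; Il36a was not analysed here. Il1rl2, the IL-36 receptor, read 233.9, 193.8 and 237.6 CPM in the controls, against 672.9, 583.9 and 522.5 CPM in the double knockout (log2 1.34, edgeR adjusted p = 0.000875). Il36g, listed in the files under its older symbol Il1f9, read 57.7, 36.6 and 48.0 CPM against 98.9, 80.5 and 179.3 CPM (log2 1.26, edgeR adjusted p = 0.0297) and was highest in replicate 3, as S100a8 was. Osmr, the oncostatin M receptor, rose by 1.04 (edgeR adjusted p = 0.00492), and Tnf fell by 1.06 on the log2 scale (edgeR adjusted p = 0.0397). The Il36g call was lost under 5 of 17 alternatives, that of Tnf under 7 and that of Osmr under 1, while Il1rl2 passed under all 17; without control replicates 1 and 2 it alone of the list was called. Il17a, Il17f, Il17c and Il22 were too low to be tested, at 0.97 CPM or less in every library. The factors Stat3, Cebpb and Nfkbiz were tested and did not pass.

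Of 13 listed antimicrobial proteins 7 were tested and none was called, with a median of -0.11. Lcn2, lipocalin 2, which holds back iron from bacteria, read 1.74, 1.77 and 0.72 CPM in the controls, against 1.38, 0.75 and 10.99 CPM in the double knockout. Defb3, a β-defensin, was at 0.083, 0 and 0 CPM in the controls, against 0.072, 0 and 5.47 in the double knockout. Within the 6-month libraries both were highest in replicate 3, the library with the most S100a8 and S100a9, while Lcn2 read 20.1 CPM in replicate 1 of the Tfap2b knockout. Without double knockout replicate 3 the Lcn2 change was -0.40. Defb6 was likewise highest in double knockout replicate 3, at 273.4 CPM. The other tested genes of the list were not. Rnase4, with the smallest p of the list, read 111.7, 70.5 and 109.6 CPM in the controls, against 113.0, 173.0 and 163.3 CPM in the double knockout (log2 0.55, edgeR adjusted p = 0.118). Defb1, Slpi, Lyz2 and Ltf were each highest in a control.

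Of 8 keratins and small proline-rich proteins of wounded and stressed epidermis, all tested, 4 were called higher (Krt6a, Krt6b, Krt16 and Sprr1b), with a median of 3.52. Their summed level was 625.3 to 960.7 CPM in the controls and 3714 to 4827 CPM in the double knockout. Without control replicates 1 and 2, which leaves 1 control, their median was 2.42. Krt6b read 2.82, 1.41 and 0.65 CPM in the controls, against 444.9, 586.2 and 641.3 CPM in the double knockout (log2 8.26, edgeR adjusted p = 0.000128), so unlike S100a8 it was even across the group. Of 12 basal keratinocyte genes tested 8 were called higher, with a median of 0.66, led by Krt14 (log2 1.71, edgeR adjusted p = 0.000969), and 2 were called without control replicates 1 and 2. Krt15, a basal keratin of the same list, read 727.6, 1164 and 1187 CPM in the controls, against 234.4, 672.5 and 330.3 CPM in the double knockout (log2 -1.39, edgeR adjusted p = 0.0513), lower without overlap but not past the threshold. The list's summed level was 10097 to 12805 CPM in the controls, against 18815 to 22264 CPM in the double knockout. These libraries were also the higher ones in S100a14 and S100a16, and the part of basal cells in those levels was not tested. Suprabasal genes had 1 higher and 1 lower of 10 and granular genes 3 lower of 12, with medians of -0.26 and 0.06.

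Markers of other cell types are given by their counts, beside the 14.9% called over all genes. Macrophage and monocyte genes had 1 lower of 9 tested (median -0.55) and summed to 48.8 to 73.6 CPM in the controls, against 53.5 to 67.8 CPM in the double knockout. Langerhans cell genes had 1 lower of 9 (median -0.30), T cell genes 1 higher and 1 lower of 11 (median -0.42), and melanocyte and Schwann cell genes, the usual source of S100b, none of 8 (median 0.08). Sebaceous genes had 2 lower of 8 (median -0.82) and skeletal muscle genes 1 lower of 3. None of the 6 endothelial, 2 adipocyte or 3 red blood cell genes tested was called. The medians of several lists moved without control replicates 1 and 2, the neutrophil genes to 2.96, the S100 receptors to 0.62 and the antimicrobial proteins to 0.89, beside 0.03 over all genes. With 1 control left, a gene at 0 in it enters a list's median only through the double knockout libraries.

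The remaining members also had genes of like pattern. For S100a14 these were Aknad1 (r = 0.997), Gm38309 (0.991) and Tmem19 (0.99), with Aknad1 at 2.91, 5.30 and 4.04 CPM in the controls, against 25.0, 26.0 and 22.3 CPM in the double knockout. For S100a16 they were Dnajc9, a co-chaperone (0.984), Ociad2 (0.981) and Tubb3, a tubulin (0.98). Ociad2 read 12.2, 15.6 and 10.8 CPM in the controls, against 25.6, 29.0 and 28.6 CPM in the double knockout. Both patterns separated the 6-month groups, as S100a14 and S100a16 did, and the correlations over 8 libraries are a description only.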

How the data were processed

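Libraries were made from total RNA of epidermal sheets after rRNA depletion and sequenced as 150 bp read pairs, per the labels' protocols. The authors deposited unnormalized read counts per gene, 1 file per sample. The submitters' processing notes name Trimmomatic 0.36, STAR 2.5.2b and featureCounts of Subread 1.5.2, and the builds GRCh38 and GRCm38 with no role. Use of strand is not given in the sources used here. Of the identifiers, 99.3% were in GENCODE M21, all on the same chromosome, so coordinates are read as GRCm38.

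CPM were computed on total counts. The test was edgeR 4.0.16 (R 4.3.3): filterByExpr, TMM factors, robust quasi-likelihood fit, Benjamini-Hochberg adjustment over all 17755 genes tested, threshold 0.05. SE is the unshrunk coefficient over the root of F. limma-voom 3.58.1 and DESeq2 1.42.0 were among 17 alternatives, which also covered scaling, filters, a replicate block, all 8 libraries, subtraction of the receptor-gene density and leaving out libraries. The fit was tested on simulated data. Intervals and floors cover counting error only. From each gene list up to 4 genes with the smallest p and a count were named; genes of like pattern are the 3 highest correlations with a mean of at least 1 CPM. Other listed genes given with values were chosen after their values were seen. The members and lists were chosen with earlier results of these data known. The values of 1 gene of the binding partner list are not reported here.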

Additional observations from a re-analysis of the deposited data

Results flagged for a closer look

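S100a1 was 54.8 CPM in replicate 1 of the Tfap2b knockout at 3 weeks, a library outside the comparison at 6 months (711 counts, exact 95% Poisson interval 50.9 to 59.0 CPM). The highest control at 6 months read 5.74 CPM. S100a13, its neighbour on the opposite strand, was 6.63 CPM in the same library (86 counts, interval 5.30 to 8.19), above the highest control at 2.82 CPM. Both intervals cover counting error only, the controls differ in age and genotype, and replicate 2 of the same group read 3.52 and 1.28 CPM.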

How the results depend on the processing

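S100a14 passed the threshold under all 17 alternatives and S100a16 under 16. S100a8 passed under 1 of the 16 that gave it a value, S100a9 under 3, S100a7a under 2 and S100a6 under 1 of 17 (no filter on low counts), while S100a1, S100a3, S100a4 and S100a13 passed under none. S100a7a, S100a8 and S100a9 gave no value where at least 10 counts were asked of every library. DESeq2 called 5 members (S100a14, S100a16, S100a7a, S100a8 and S100a9). It also called more genes in all, 3835 of 17755 against 2637 with edgeR. Leaving out 1 library at a time gave 1 to 3 members.

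The count of all genes past the threshold moved from 2637 to 4809 with no filter, 1729 with the replicate block, 437 without control replicates 1 and 2, and 668 to 7544 when 1 library was left out (lowest without double knockout replicate 1, highest without control replicate 3). On total counts the calls split into 1414 higher and 1297 lower, against 1111 and 1526. Where 1 control is left, it is assumed to vary like the double knockout libraries. The labels do not say whether a replicate number marks a shared litter or day. The deviations of same-numbered libraries from their group means, gene by gene, correlated at 0.03, -0.16 and -0.06. So few libraries per group cannot decide the question. With the block 2 members were called.

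Some values changed sign. S100a1 was 0.05 on total counts, 0.09 with no filter, 0.11 without control replicates 1 and 2, and -0.21 to 0.15 with 1 library left out. S100a13 ranged from -0.07 to 0.45, Lcn2 from -0.40 to 2.02 and Pglyrp4 from -0.40 to 0.10 in the same way. Without control replicates 1 and 2 Pglyrp4 was 0.41, Ltf 1.36 and Csf3r 3.06, and Csf3r was 0.29 with limma-voom; the cause was not tested. Of the values of 45 genes under the alternatives, 662 kept direction and side of the threshold, 59 lost the call, 20 gained it and 14 changed sign. In the controls S100a8 had 1 to 25 counts and S100a9 5 to 8, so their fold changes rest on few counts.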
